A study of Mus musculus with 2 samples.

Results

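The enzymes and transporters that carry glucose through glycolysis to lactate, through the pentose phosphate pathway and through the tricarboxylic acid (TCA) cycle were examined in splenic red pulp macrophages of the mouse. The 41 genes comprised 21 of glycolysis and lactate handling, 3 of the pyruvate dehydrogenase step, 7 of the pentose phosphate pathway and 10 of the TCA cycle. The rule names genes by pathway and uses no measured value, although it was written with earlier results of these data known. A probe was assigned to a gene when the RefSeq accession printed for it in the scanner file belonged to that gene, and control spots and spots with an outlier flag on either array were left out. All 41 genes had a probe on the array, 38 had one left after the flags, and 33 were measured, meaning that the scanner software called the probe well above background on 1 array or both. In all, 20218 genes could be named and 15449 were measured. The members were thus 41 of 20218 named genes.

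The macrophages were F4/80+ CD11b-low cells sorted from digested spleens. One group was wild type (WT). The other carried a knockout of SIRPα, the inhibitory myeloid receptor for CD47; the labels give neither the strain, the age nor the kind of deletion. For each genotype the cells of 5 mice were mixed before RNA extraction, α- and β-globin transcripts were depleted from both, and 1 single-colour array was hybridised, so each group is 1 pool on 1 array. No test across samples was possible, and no value below has a replicate check. In such pools, fewer cells of a type and less RNA per cell cannot be told apart.

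Sirpa itself went against the label. Its only probe read 795 in WT and 1006 in the array labelled SIRPα-KO, a log2 difference of 0.51 ± 0.20. The sources used here do not say whether that probe lies in the deleted part; outside it, the probe checks nothing. Directions below therefore follow the labels, and "the knockout-labelled array" means the library labelled SIRPα-KO. Both arrays came from the same scan. The share of probes well above background was 71.4% for WT and 65.1% for the other, and no spot was saturated. All differences are the knockout-labelled minus the WT array, on the log2 scale of the scaled signal, and folds follow them. Single signals are printed before scaling. A printed pair can therefore fall where the difference lies above 0. The value after ± is the scanner software's error of both spots and covers neither pools nor animals. Because the arrays were unreplicated, size alone was judged: a gene was counted when its difference reached 2-fold, which is 1 on the log2 scale.

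As background, glycolysis splits glucose into pyruvate in the cytosol, and lactate dehydrogenase turns pyruvate into lactate when it is not burned. The pentose phosphate pathway branches off at glucose 6-phosphate and yields NADPH, which keeps glutathione reduced, and ribose for nucleotides. The TCA cycle in mitochondria oxidises acetyl-CoA and feeds the respiratory chain. Activated macrophages are known for increased glycolysis driven by the transcription factor HIF-1 and for withdrawing citrate from the cycle. Red pulp macrophages take up aged red blood cells and must cope with the oxidants that heme and iron produce.

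The sequences just before the transcription start of 3 members are shown because these genes lay furthest from 0 in each direction (Slc2a1 and Pfkm lower, Ldhb higher) and because many glycolysis genes are textbook HIF-1 targets. Each is the 250 bases before a RefSeq start in GRCm38.p6, written 5′ to 3′ on the gene's strand. Slc2a1 lies at chr4:119108495-119108744 on the plus strand. The Pfkm window is the most upstream of 4 annotated starts, at chr15:98092339-98092588 on the plus strand, and Ldhb lies at chr6:142507958-142508207 on the minus strand. Capitals mark the HIF core letters ACGTG or GCGTG read on either strand.
Slc2a1: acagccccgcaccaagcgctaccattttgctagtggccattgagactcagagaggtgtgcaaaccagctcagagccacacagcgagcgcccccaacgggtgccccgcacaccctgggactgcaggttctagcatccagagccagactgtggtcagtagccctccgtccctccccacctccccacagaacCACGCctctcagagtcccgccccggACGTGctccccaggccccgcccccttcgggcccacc
Pfkm: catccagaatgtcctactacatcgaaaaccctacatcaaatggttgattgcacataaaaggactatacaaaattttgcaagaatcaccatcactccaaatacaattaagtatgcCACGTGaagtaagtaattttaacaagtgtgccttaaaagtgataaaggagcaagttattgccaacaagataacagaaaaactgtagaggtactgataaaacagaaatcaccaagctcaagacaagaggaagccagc
Ldhb: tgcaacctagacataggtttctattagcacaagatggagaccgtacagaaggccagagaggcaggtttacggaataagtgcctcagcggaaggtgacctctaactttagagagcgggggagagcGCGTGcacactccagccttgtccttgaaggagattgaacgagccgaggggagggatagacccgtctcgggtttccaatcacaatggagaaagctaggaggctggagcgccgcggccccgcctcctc
The core letters occurred at 2 positions in the Slc2a1 window, at 2 overlapping positions in the Pfkm window, where both strands read 1 palindrome, and at 1 position in Ldhb. They also occur inside the E-box CACGTG, which other factors bind. Promoter windows were found for 39 members, and 34 of them (87.2%) held the letters in at least 1 window, against 41.5% of 27025 genes with a window. Among measured genes the shares were 26 of 31 members (83.9%) and 50.3% of 12269 genes. The letters were held by 15 of the 17 lower members with a window and by 11 of the 14 higher ones. A match is a match of letters only. Both core words contain CG, and the base composition of the windows was not compared. A gene with several windows also has more room for a match.

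Most members differed little between the arrays. Of 33 measured members, 1 was higher by 2-fold or more (3.03%) and 1 was lower by as much (3.03%), near the 3.13% and 5.46% of all measured genes. The median member difference was -0.16 and the interquartile range of the members lay between -0.35 and 0.35; over all measured genes the median was -0.09. Below 0 lay 19 members (57.6%), against 58.2% of all measured genes. A difference of more than 2 software errors was reached upward by 8 members (24.2%; all genes 14.3%) and downward by 4 (12.1%; all genes 17.8%), and 21 members stayed within that range. The 4 lower members were Slc2a1, Hk1, Pfkm and Ldha, all of glycolysis. The 8 higher ones were Gapdh, Pgam1 and Ldhb of glycolysis, Rpe and Pgd of the pentose phosphate pathway, and Cs, Idh2 and Mdh1 of the TCA group.

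**Figure D1:**
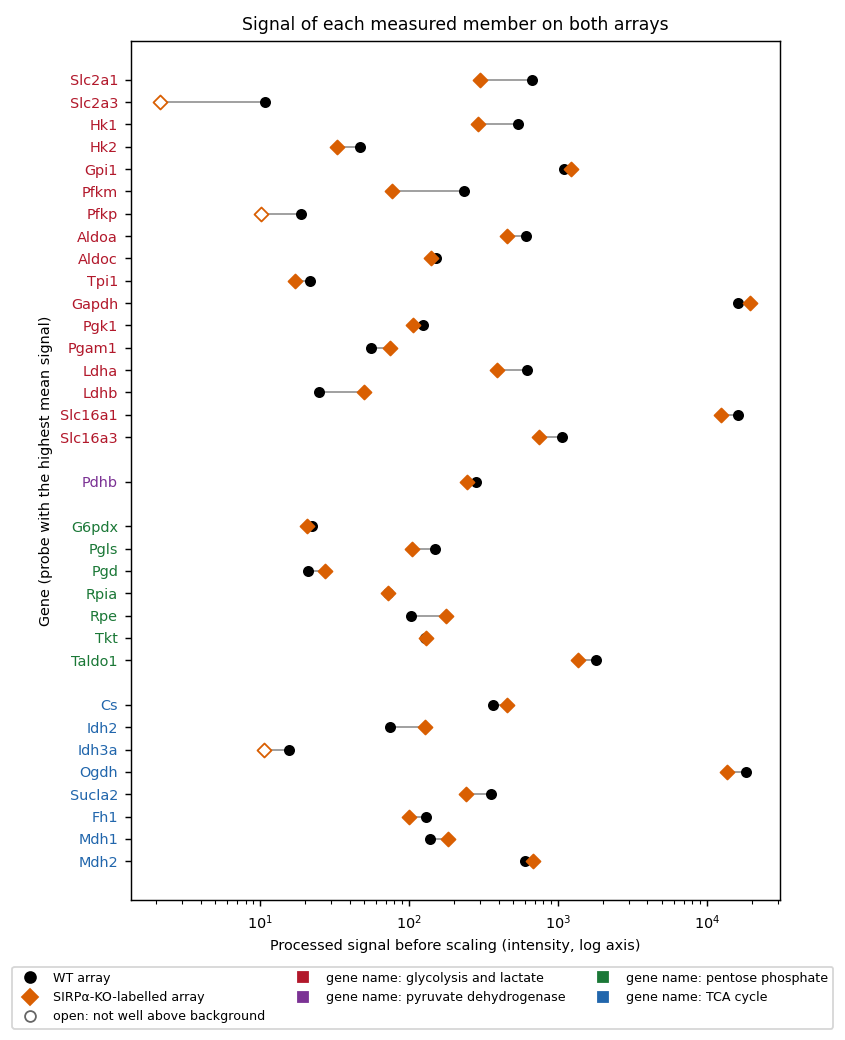
Processed signal of each of the 33 measured members on the WT array (black circles) and the knockout-labelled array (orange diamonds), on a log axis, before scaling; each symbol is 1 array. Pairs are read within a gene, since probes differ in brightness. The widest gaps with both symbols filled are Pfkm (234 to 76.4), Slc2a1 (668 to 299) and Ldhb (24.8 to 50.2).

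**Figure D2:**
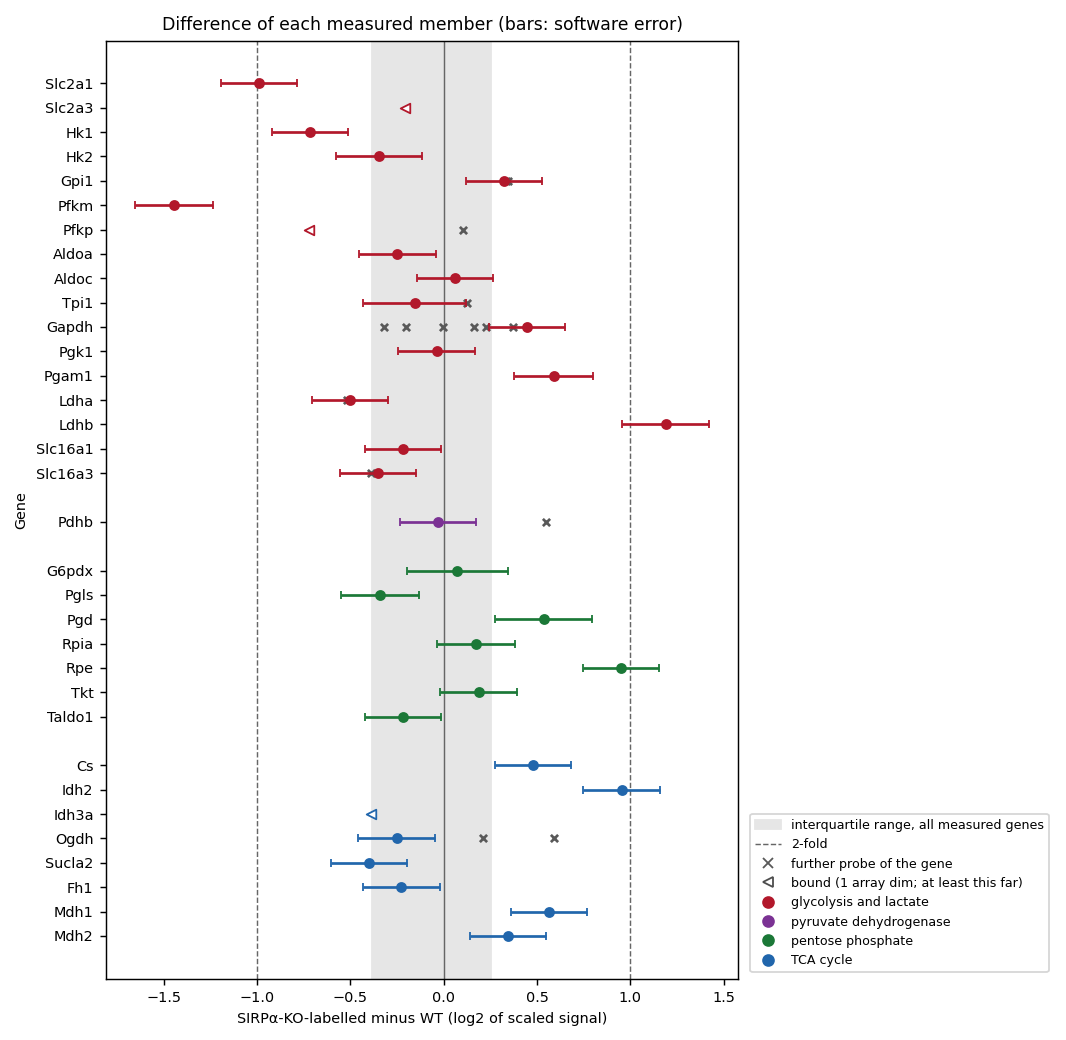
Difference of each measured member, knockout-labelled minus WT, on the log2 scale, coloured by pathway, with the software error as bars; crosses are further probes of the same gene, open triangles are bounds, and grey is the interquartile range of all measured genes. Pfkm at -1.45 and Ldhb at 1.19 lie beyond the dashed 2-fold lines, and Slc2a1, Rpe and Idh2 lie just inside them.

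At the entry of glucose, the members measured on both arrays lay lower. Slc2a1, which encodes the widespread glucose transporter GLUT1, gave 668 in WT and 299 in the knockout-labelled array. Its difference of -0.99 ± 0.20 corresponds to 1.99-fold after scaling and just missed the size rule. Slc2a3, the high-affinity transporter GLUT3, read 10.9 in WT and 2.14 in the other pool, where it was not well above background. It was at least 1.15-fold lower, with the software error left out. Hk1, one of the hexokinases that trap glucose as glucose 6-phosphate, went from 536 to 290 (-0.72 ± 0.20). Another Hk1 probe, left out because its local background carried flags, read 197532 and 168785, a difference of -0.06 ± 0.20. Hk2, the inducible hexokinase, read 47.1 and 32.9 (-0.35 ± 0.23). Hk3, a hexokinase of myeloid cells, had its only probe flagged as non-uniform; that spot read 86.3 for WT and 163 for the other pool, in the opposite direction to Hk1 and Hk2.

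The phosphofructokinases, which commit sugar to glycolysis, included the member furthest below 0. Pfkm, the muscle-type subunit, gave 234 in WT and 76.4 in the knockout-labelled array, a difference of -1.45 ± 0.21 or 2.73-fold. It was the only member read from repeated spots: 8 spots per array were kept, with SDs of 0.19 and 0.22 on the log2 scale, so the gap exceeded the spread between spots, but the gene has no further probe. Pfkp, the platelet-type subunit, read 18.9 against 10.2 at 1 probe, the latter not well above background. Its bound there of 1.65-fold lower (-0.72 ± 0.40) lay less than 2 software errors from 0. Another Pfkp probe differed by 0.10 ± 0.41. The liver-type subunit Pfkl, with signals of 8.72 and 7.18, was not well above background on either array.

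The steps between fructose bisphosphate and pyruvate differed less and in both directions. Gpi1, which isomerises glucose 6-phosphate upstream of them, had 3 probes with differences of 0.32, 0.35 and 0.33, an SD of 0.01 over probes. The aldolases Aldoa and Aldoc differed by -0.25 ± 0.20 and 0.06 ± 0.21. Tpi1, triosephosphate isomerase, gave -0.16 and 0.12 at its 2 probes, each within its error of 0.28 and 0.27. Gapdh, the enzyme often taken as a reference transcript, had 7 probes. Its brightest read 16174 for WT and 19623 for the other (0.45 ± 0.20), while the 7 probes together ranged from -0.32 to 0.45 with an SD of 0.29. The probes of this gene thus disagreed in sign, and the difference at the brightest was not shared by all of them. Pgk1, phosphoglycerate kinase, differed by -0.04 ± 0.21, and the mutase Pgam1 went from 56.0 to 74.9 (0.59 ± 0.21). Eno1 and Pkm, which complete the path to pyruvate, had their only probes left out for background flags. The Eno1 spot read 38069 and 32910 (-0.04 ± 0.20), and the Pkm spot was close to background, at 5.23 and 5.67. Many of these genes have processed pseudogenes in the mouse genome; whether their probes also read such copies was not tested.

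Lactate handling held the member furthest above 0. Ldhb, the lactate dehydrogenase subunit that favours lactate oxidation, gave 24.8 in WT and 50.2 in the knockout-labelled array, a difference of 1.19 ± 0.23 or 2.28-fold. Both signals were low and came from single spots. Ldha, the subunit that favours lactate formation, went from 621 to 389 (-0.50 ± 0.20), and its other kept probe differed by -0.52 ± 0.34. A further Ldha probe, left out because the local background on the knockout-labelled array was flagged, read 12373 and 16925 (0.62 ± 0.20), the opposite way. The direction of Ldha therefore depends on which probe is read. The lactate and pyruvate carrier Slc16a1 differed by -0.22 ± 0.20, from 16313 to 12458. Slc16a3, the lactate exporter of glycolytic cells, had signals of 1074 and 749 at the brighter probe (-0.35 ± 0.20) and differed by -0.39 ± 0.20 at the other. Over the 17 measured members of glycolysis and lactate handling the median was -0.22, against -0.09 for all measured genes. Below 0 lay 12 (70.6%, against 58.2% of all measured genes), and 5 lay above. Of the 12, Slc2a3 and Pfkp were bounds that could not lie above 0. Aldoa, Pgk1, Slc16a1 and Slc2a3 reached 0 or changed sign under other scalings. With flagged spots kept, the median of this group was -0.06 over 19 members, against -0.09 for all measured genes.

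Pyruvate enters mitochondria and is turned into acetyl-CoA by pyruvate dehydrogenase. Pdhb, the β subunit of its first enzyme, differed by -0.03 ± 0.20 at 1 probe and 0.55 ± 0.20 at the other, from signals of 280 and 244 and of 209 and 271. Pdha1, the α subunit, and Pdk1, the kinase that switches the complex off, were not well above background on either array. Pdha1 read 7.10 and 7.19, and Pdk1 read 4.36 and 2.71.

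All 7 members of the pentose phosphate pathway were measured on both arrays, each from 1 probe and 1 spot. Above 0 lay 5 and below 0 lay 2 (28.6%, against 58.2% of all measured genes), with a median of 0.17. Rpe, the ribulose phosphate epimerase, went from 104 to 179 (0.95 ± 0.21, 1.93-fold) and just missed the size rule. In the oxidative branch that makes NADPH, G6pdx, its rate-limiting dehydrogenase, read 22.3 and 20.8 (0.07 ± 0.27), the lactonase Pgls 150 and 105 (-0.34 ± 0.21), and the dehydrogenase Pgd 21.1 and 27.2 (0.54 ± 0.26). The 3 steps of this branch did not share a direction. In the branch that rearranges sugars, Rpia differed by 0.17 ± 0.21, the transketolase Tkt by 0.19 ± 0.21 and the transaldolase Taldo1 by -0.22 ± 0.20, each close to its error.

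In the TCA group, 8 of 10 members were measured. Above 0 lay 4 and below 0 lay 4 (50%, against 58.2% of all measured genes). The median was 0.06, against -0.09 for all measured genes, and 0.35 over the 7 members measured on both arrays. Cs, citrate synthase at the entry of the cycle, read 369 for WT and 456 for the other (0.48 ± 0.20). Idh2, the mitochondrial NADPH-forming isocitrate dehydrogenase, went from 74.1 to 128 (0.95 ± 0.21, 1.94-fold). Idh3a, a subunit of the NAD-dependent isocitrate dehydrogenase of the cycle proper, read 15.6 and 10.6, the latter not well above background. Its bound of 1.31-fold lower (-0.39 ± 0.43) could not lie above 0 and lay within 1 software error of it. The malate dehydrogenases lay higher: Mdh1 of the cytosol differed by 0.56 ± 0.21 (138 and 182) and Mdh2 of the mitochondrion by 0.35 ± 0.20 (603 and 681). Sucla2, a succinyl-CoA ligase subunit, differed by -0.40 ± 0.20 (358 and 241) and fumarase Fh1 by -0.23 ± 0.21 (131 and 99.5). Ogdh, the oxoglutarate dehydrogenase, differed by -0.25, 0.59 and 0.21 at its 3 probes, so its sign was not settled. Cytosolic Idh1 and the ligase subunit Suclg1 were not well above background on either array. The Idh1 signals were 1.81 and 2.13, and those of Suclg1 were 6.44 and 1.84. Of the whole set, 8 members had several measured probes, and in 5 of these the probes differed in sign.

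**Figure D3:**
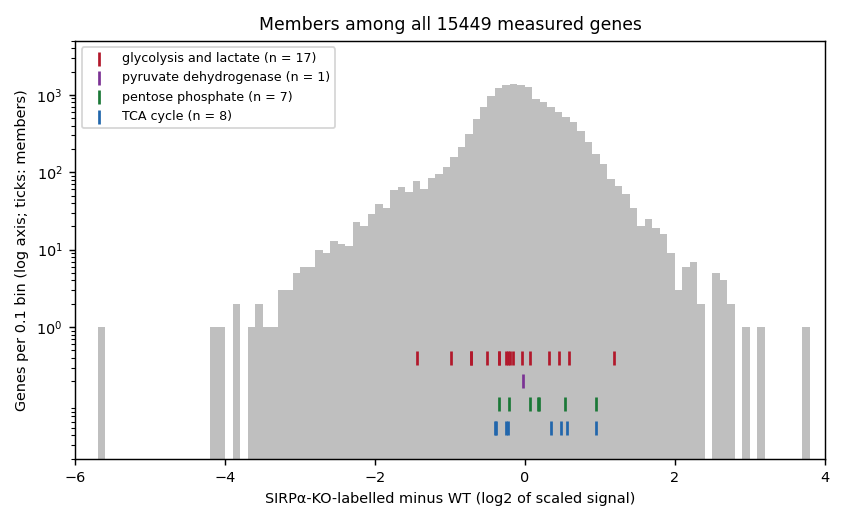
Grey bars count the 15449 measured genes by their difference (bins of the log2 difference, log count axis), and ticks mark the measured members by pathway. The members lie between -1.45 and 1.19, within the body of the distribution, which reaches from -5.62 to 3.71.

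Other genes of the same pathways were described from lists set by pathway, likewise drawn up with earlier results of these data known. The 17 measured other glycolysis genes had a median of -0.39. By the size rule 1 was higher (5.88%, against 3.13% of all measured genes) and 1 lower (5.88%, against 5.46%). The higher one was Slc16a7, the monocarboxylate carrier MCT2, from 192 to 592 (1.79 ± 0.20). The lower one was Pklr, the pyruvate kinase of liver and red blood cells, from 37.9 to 15.2 (-1.15 ± 0.30). Pfkfb3, which makes the activator of phosphofructokinase, was the brightest of the list and differed by -0.28 ± 0.20. In the list around pyruvate dehydrogenase, 1 of 10 genes was higher by the size rule (10%, against 3.13% of all measured genes). It was Pdhx, which anchors a subunit of the complex and went up from 12.3 to 28.8, both low. Pdp1, the phosphatase that switches the complex on, differed by -0.42 at its brightest probe but by 0.77 and 1.05 at others. The pyruvate carrier subunit Mpc1 differed by 0.29 ± 0.20 and its further probe by 0.26. All 5 measured other pentose phosphate genes lay above 0, against 40.3% of all measured genes, with a median of 0.41. However, 2 of the 5, Prps1 and Rbks, were well above background on the knockout-labelled array only, so their bounds could not lie below 0. The 3 measured on both arrays had a median of 0.32, and 0 of the 5 passed the size rule. H6pd, the glucose 6-phosphate dehydrogenase of the endoplasmic reticulum, read 240 and 351 (0.72 ± 0.20).

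Among 8 measured other TCA enzymes, 1 was lower by the size rule (12.5%, against 5.46% of all measured genes), and the median was 0.08. The gene was Idh3g, the γ subunit of the same NAD-dependent isocitrate dehydrogenase as Idh3a, down from 3796 to 863 (-1.97 ± 0.20), read from 1 spot with no further probe. The β subunit Idh3b, named after its values were seen, differed by -0.11 ± 0.28. In the list of genes that draw carbon from the cycle or return it, 13 were measured. At least 2-fold lower were 3 of the 13 (23.1%, against 5.46% of all measured genes). Higher by as much was 1 (7.69%, against 3.13%), 11 lay below 0 (84.6%, against 58.2%), and the median was -0.32. Got2, the mitochondrial aspartate aminotransferase, went from 5904 to 1265 (-2.05 ± 0.20). Its cytosolic partner Got1 went the other way, from 24.9 to 46.1 (1.06 ± 0.24). Both work with Mdh1 and Mdh2 in the malate-aspartate shuttle, which carries reducing equivalents into mitochondria. Acod1, which makes the immunomodulatory metabolite itaconate from a TCA intermediate, went from 2088 to 509 (-1.87 ± 0.20). Its 10 spots had SDs of 0.11 (WT) and 0.14, so the gap exceeded the spread between spots. Acly, which turns exported citrate into acetyl-CoA, went from 4705 to 1805 (-1.21 ± 0.20), with a further probe at -0.30. Probes also disagreed for the malic enzyme Me1, at -0.54 and 1.01.

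Regulators of these pathways had a median of -0.17, and 1 of 13 measured genes was lower by the size rule (7.69%, against 5.46% of all measured genes). Hif1an, the asparagine hydroxylase that restrains HIF, went from 122 to 26.9 (-2.01 ± 0.23). Epas1, which encodes HIF-2α, was the brightest of the list and differed by -0.05 ± 0.20. Of 12 measured HIF-1 targets outside the members, 0 were at least 2-fold apart and 6 lay on each side of 0, with a median of -0.04; the mitophagy receptor Bnip3 differed by -0.47 ± 0.20 and by -0.43 at a further probe. The count rests on the brightest probe of each gene: Bnip3l, another mitophagy receptor, differed by 0.42 there, by 0.41 at a further probe and by 1.88 at another. NRF2 is the transcription factor of the antioxidant response. Of its 7 measured targets, 1 was higher by the size rule (14.3%, against 3.13% of all measured genes) and 1 lower (14.3%, against 5.46%). Their median was -0.32. Gclm, a subunit of the enzyme that starts glutathione synthesis, went from 8.19 to 21.4, both low (1.55 ± 0.37). Gsr, which uses NADPH to reduce glutathione, went from 1104 to 360 (-1.45 ± 0.20), with -1.12 at a further probe. Ftl1, the ferritin light chain, differed by 0.73 ± 0.20 and its further probe by -0.24.

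**Figure D4:**
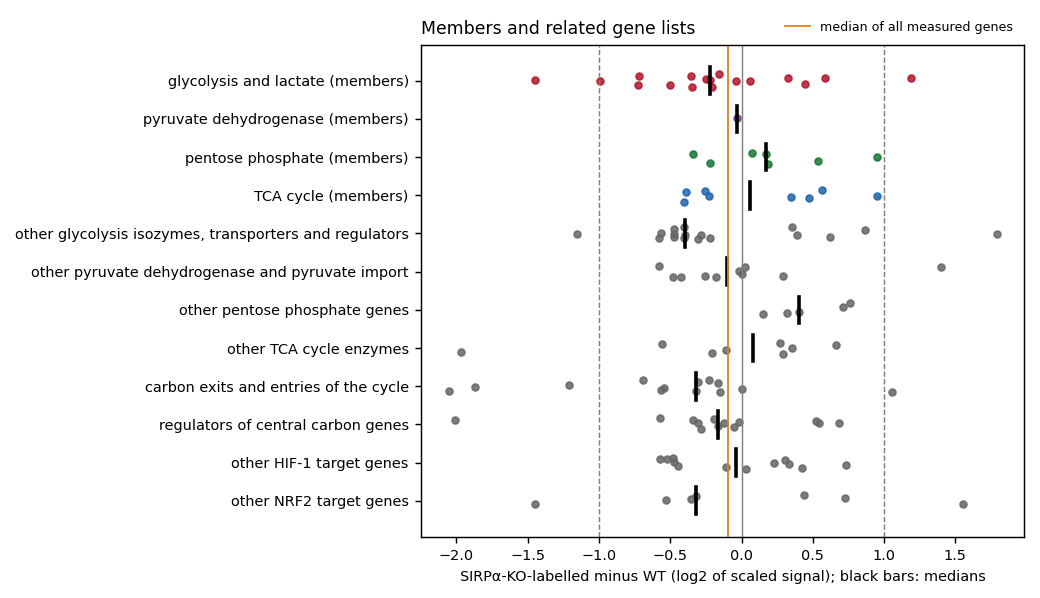
Each dot is 1 measured gene of the members (coloured) or of a related list (grey), plotted by its log2 difference, knockout-labelled minus WT; black bars are list medians and the orange line is the median of all measured genes, -0.09. The list of carbon exits and entries holds 3 genes beyond -1. The members of the pentose phosphate pathway and the other genes of that pathway have medians of 0.17 and 0.41. The latter median includes 2 bounds that could not lie below 0.

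The labelled cell type was checked by a list of 14 macrophage markers, not all of them particular to the red pulp. Of these, 11 were measured, with 5 above 0, 6 below and a median of -0.10. Marco and Siglec1, which are not particular to the red pulp, were among the 5 above. The kept probes of Vcam1 and Mertk were not well above background. Csf1r, the receptor for the macrophage growth factor CSF1, read 6601 and 6697 (0.19 ± 0.20). Spic, a defining transcription factor of red pulp macrophages, read 53.6 and 53.6 (0.17 ± 0.22). Fcgr1, an Fc receptor, passed the size rule, from 251 to 525 (1.23 ± 0.20), and the scavenger receptor Marco differed by 0.74 ± 0.20. The scavenger receptor Cd163 differed by -0.57 ± 0.24, and Adgre1, which encodes the F4/80 antigen of the sort, by -0.47 ± 0.20 (737 and 474). These markers were named after their values were seen. Of 14 erythroid markers, 12 were measured, with a summed signal of 22115 in WT and 14992 in the other pool, and 1 passed the size rule in each direction; most of the sum was Ermap (19111 and 12763), and the list median was -0.16. Rhd and Epb42 were not well above background. The summed signal of 11 measured T and NK cell markers was 36689 and 16808, most of it Cd8b1 (27895 and 10283); 1 of the 11 was lower by the size rule and the median was -0.06. For 10 measured B and plasma cell markers the summed signal was 4664 and 2336. By the size rule 3 were lower (30%, against 5.46% of all measured genes) and 0 higher, with a median of -0.18. Among these, Cr2 read 1547 and 327 and Jchain 1343 and 174, while a further Cr2 probe differed by 0.31. For 7 monocyte and neutrophil markers the sum was 45964 and 39457, nearly all of it Elane (45722 and 39299), with 1 lower by the size rule and a median of -0.19. Camp, named after its values were seen, read 101 and 87.4, and Mpo was not well above background. For 10 dendritic cell markers the sum was 3363 and 1725, most of it Ccr9 (1853 and 941) and Flt3 (1217 and 516). Of these, 1 was past the size rule in each direction, with a median of -0.03. For 10 platelet markers it was 14909 and 14345, with 1 higher and a median of -0.18. All these sums are of signals before scaling. Over all measured genes the sum was 1.402e+07 for WT and 1.096e+07 for the other pool. Since a sum is set by its brightest probes, sums and medians are read together. The part of such cells in the members' values was not tested. Of 10 measured proliferation genes 0 were at least 2-fold apart (median 0.03). Of 8 genes of tissue handling 2 were higher by the size rule, against 3.13% of all measured genes, with a median of 0.30. These were Egr2, from 8.89 to 23.6, and Ier3, from 14.8 to 26.9. Both were low on both arrays and came from single spots. The brightest gene of that list, Hsp90aa1, differed by 0.18 ± 0.20.

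How far the members' signs depended on scaling was examined across the main setting and 6 other scalings, which included quantile normalization, no scaling and the authors' own values. In all of them 12 members stayed below 0 and 12 above 0, while 9 of the 33 were at 0 or changed sign. Pfkm ranged from -1.62 to -1.35 and Slc2a1 from -1.16 to -0.79 over these scalings. Ldhb ranged from 1.02 to 1.28, Rpe from 0.78 to 1.04 and Idh2 from 0.78 to 1.05. The median of all members turned with the scaling, from -0.32 without scaling to 0.05 after quantile normalization, so no common direction of the set is given. After normexp background correction, which shrinks differences of dim spots, Ldhb was 0.45 and Pfkm -0.99.

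**Figure D5:**
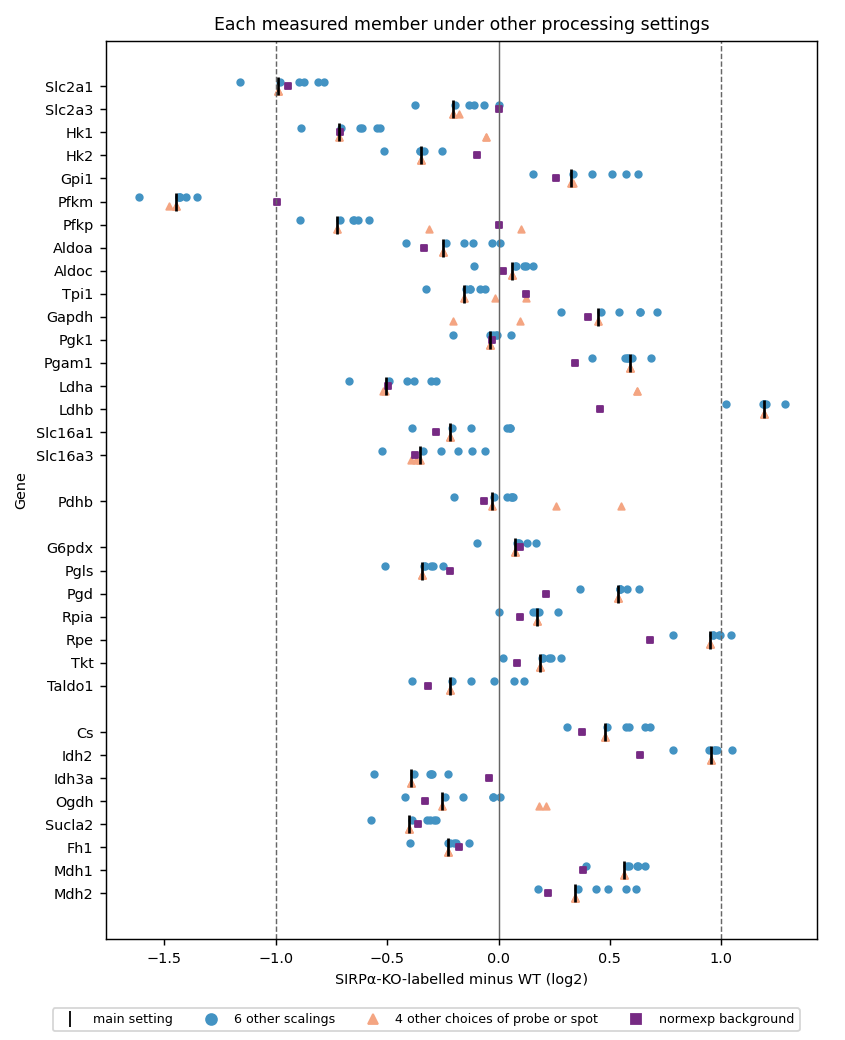
Log2 difference of each measured member, knockout-labelled minus WT, in the main setting (black tick), under 6 other scalings (blue), under 4 other choices of probe or spot (orange) and after normexp background correction (purple). Pfkm, Slc2a1, Ldhb, Rpe and Idh2 keep their side of 0 in every setting drawn, but each has only 1 probe, so another choice of probe could not move them. Ldha and Gapdh, with 3 and 7 probes, cross 0 with another choice of probe or spot.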

How the data were processed

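The deposited scanner tables give spot intensity, written, per the file headers, by version 11.0.1.1 of Agilent Feature Extraction, whose processed signal is already background-subtracted; the array grid is annotated on mm9. The deposited value table holds the authors' log2 values for 39485 probes; the sources used here do not give their normalization. They did not fall at any step along the scanner signal of the same array (24653 to 27008 single-spot probes), so scale and direction are settled, and each column's median was 4.56.

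Here log2 signals were scaled by each array's 75th percentile (100.2 for WT, 89.1 for the other). Of 43020 non-control spots, 1559 with an outlier flag on either array were left out, and spots of a probe were averaged. Accessions named 26419 of 38231 probes through RefSeq (GRCm38.p6, names only). Where a gene had several measured probes, the brightest on average stood for it. Where 1 array was not well above background, that side took its own value or the floor of probes well above background, whichever was greater, giving a bound, written "at least"; this held for 3 members and 1645 genes. Python 3.11.15 and limma 3.58.1 were used. Only the size rule was tested on simulated data, with shifts above its limit added to scaled WT values together with the software error. Flags, scaling, probe naming and bounds were not part of that test.

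The members and lists were chosen with earlier results of these data known. All members are named, and of each related list the genes at least 2-fold apart and the brightest. With 1 array per group, precision is limited by their number. The values of 2 listed genes are not reported here.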

Additional observations from a re-analysis of the deposited data

Results flagged for a closer look

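Spots with an outlier flag were outside the comparison, and 2 flagged probes of members carried a signal on the knockout-labelled array that lay above the WT array by more than 2 software errors. The probe of Hk3 differed by 1.08 ± 0.26, and the brightest probe of Ldha by 0.62 ± 0.20. The Hk3 spot was flagged as non-uniform itself, while for Ldha the flag concerned the local background. Neither value has a replicate, and the part of the flagged feature in them was not tested.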

How the results depend on the processing

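The 6 other scalings, 4 other choices of probe or spot, 2 other filters on dim probes, and normexp with an offset of 50 on median signals were set against the main setting; normexp on median signals and the use of spot flags alone were added after seeing the data, and normexp on mean signals could not be run because the scanner files used here hold none. The members at least 2-fold higher, 1, became 3 with the percentile over spots above background on both arrays, 2 with flagged spots kept, 0 after normexp, 4 at 1.5-fold and 0 at 3-fold. Those at least 2-fold lower, 1, became 2 without scaling, 3 with no filter on dim probes, 0 after normexp, 4 at 1.5-fold and 0 at 3-fold. Over all measured genes, 484 higher became 298 without scaling, 100 after normexp, 863 unfiltered, 1760 at 1.5-fold and 105 at 3-fold, and 844 lower became 558 after normexp, 1615 unfiltered, 2098 at 1.5-fold and 367 at 3-fold. Fold limits and filters change these counts by construction; otherwise the cause was not tested. Higher genes made up 36.4% of those 2-fold apart, 48.3% after quantile normalization, 46.1% after cyclic loess, 46.4% with the percentile over spots above background, 47.2% by the authors' numbers, 15.2% after normexp and 20.6% without scaling, which also took the all-gene median from -0.09 to -0.26. The median of all members, -0.16, was 0.061 at the dimmest probes. That of the TCA cycle, 0.06, was 0.30 after quantile normalization, 0.27 in the authors' values, 0.35 over genes above background on both arrays, 0.26 with the mean of all probes and 0.28 at the dimmest. The medians of glycolysis and of the pentose phosphate pathway moved by less than 0.21, the median software error of single members. That is not an error of a median. The glycolysis median, -0.22, was -0.39 without scaling, against -0.26 for all measured genes. In the authors' values it was -0.03, against -0.02. With flagged spots kept it was -0.06, against -0.09, so its place beside all measured genes was not stable. No paired analysis was possible because each group has 1 array. Signals near background, as for Slc2a3, Pfkp and Idh3a, give bounds only.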
